A study of Canis lupus familiaris with 89 samples.

Results

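Mammary carcinomas and mammary adenomas of the dog were compared by RNA sequencing, with 15 carcinoma and 23 adenoma libraries among 89 libraries from 16 dogs. The members were chosen by the detailed histology label, which reads Carcinoma or Adenoma with no further term. Lesions labelled complex, mixed or in situ, and the non-neoplastic samples, were left out. All samples were bulk mammary tissue, for which the labels name no treatment of the dogs, and polyadenylated RNA was sequenced on an Illumina HiSeq2000. The labels give no age and no breed for the single dogs. The word simple serves here only for lesions not labelled complex or mixed, and the free-text diagnosis of 4 carcinomas and 5 adenomas named a further lesion in the same sample.

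A simple tumor of the canine mammary gland consists of a single kind of neoplastic cell, usually of luminal epithelium. A complex or mixed tumor also holds proliferating myoepithelium, cartilage or bone. An adenoma keeps an ordered gland pattern and does not invade, and a carcinoma does. The luminal epithelium of the gland divides into hormone-responsive cells that carry the estrogen, progesterone and prolactin receptors with the transcription factors FOXA1 and GATA3, and secretory progenitor cells that depend on ELF5. Loss of hormone receptors and a high share of dividing cells are known features of aggressive mammary carcinomas in dogs and in women.

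Each dog carried several lesions, so a carcinoma could be set against adenomas of the same animal. Of the 16 dogs, 9 had both types, with 12 carcinomas and 17 adenomas, and these alone carry a difference estimated within dogs. A further 2 dogs had only carcinomas of this label and 5 had only adenomas. Among dogs with both types, library preparation differed only within dog 54. Its adenoma replicate 11 carried the preparation label LB9, and its carcinomas and its other adenoma LB8. Gene reads ranged from 6.23 M to 68.4 M in carcinomas (median 40.1 M) and from 9.05 M to 61.7 M in adenomas (median 37 M). The RNA integrity number had a median of 9.7 in carcinomas and 9.2 in adenomas. Within dogs it differed by 0.0529 (two-sided exact permutation of lesion type within dogs, p = 0.861), and log2 gene reads differed by 0.0721 (exact permutation p = 0.826). Tumor diameter, whose unit the labels do not state, had a median of 2.35 in 14 carcinomas and 0.7 in 21 adenomas. The log2 diameter difference within dogs was 0.804 (exact permutation p = 0.149, 0.446 after Benjamini-Hochberg adjustment over the 3 tests). Over all 35 measured lesions without regard to dog it was 1.27 (permutation p = 0.00614).

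Both types expressed the defining markers of mammary epithelium. EPCAM, an adhesion protein of epithelial cells, lay between 385 and 1810 CPM (the gene count scaled to a common library size) in carcinomas and between 534 and 1760 in adenomas. KRT18, a keratin of luminal cells, had a median of 367 CPM in carcinomas and 676 in adenomas, with 2 carcinomas, of dogs 29 and 47, under the lowest adenoma. The carcinoma of dog 29 stood apart in several of these markers. It held 12 CPM of KRT18, 22.9 of KRT5 and 0 of ELF5, and its RNA integrity number of 6.9 was the lowest among the 14 carcinomas with a value. Dog 29 had complex adenomas but no lesion labelled Adenoma. This library therefore does not enter a difference within dogs in the fit of carcinomas and adenomas alone. Skeletal muscle genes were high in 3 libraries, adenoma replicate 3 of dog 17, adenoma replicate 12 of dog 59 and carcinoma replicate 8 of dog 54. In bulk tissue, fewer cells of a type and less RNA per cell cannot be told apart.

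No gene passed the test between carcinomas and adenomas of the same dog. Among 16024 genes, edgeR's quasi-likelihood test, which held dog as a block, called 0 higher and 0 lower in carcinomas at a Benjamini-Hochberg adjusted p under 0.05 (0% of genes tested in each direction), and the lowest adjusted p was 0.9998. At an unadjusted p under 0.05 there were 573 genes (3.58%), with 224 higher (1.4%) and 349 lower (2.18%). That share is below the 0.05 that the limit itself gives on average where no gene differs. The median standard error of a log2 difference was 0.22. The 95% interval lay wholly within a 2-fold difference for 11685 genes, or 72.9%. For the remainder the interval reached a 2-fold difference, and 179 estimates on the higher and 278 on the lower side were themselves beyond 2-fold. Among 21 libraries from sequencing runs that held both types, with run as the block, 0 genes passed and 200 had an unadjusted p under 0.05. The libraries of a type varied among themselves by a median log2 SD of 0.59 over carcinomas and 0.61 over adenomas, and 45.3% of genes varied more among carcinomas.

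The count depended on the test for a handful of genes. DESeq2 with the same dog block called 1 gene higher (0.00624%) and 3 lower (0.0187%), and 1007 genes had an unadjusted p under 0.05. SLC35F1, TMEM45A and SPA17 were among these 4, and the other was ENSCAFG00000002491, which has no symbol in the files. Without dog in the model edgeR called 7 genes higher (0.0437%) and 0 lower (0%), among them COL11A2 and ZPLD1. ENSCAFG00000002491 was at 0 CPM in the lowest carcinoma, 2.7 in the median and 243 in the highest, against 1.14, 32.1 and 1480 in adenomas, and 6 carcinomas lay below every adenoma. Its log2 difference within dogs was -3.32 ± 0.99 (unadjusted p = 0.00248 by edgeR), negative in 7 of 9 dogs, with a DESeq2 adjusted p of 0.016. The genes named next are those with the lowest unadjusted p among genes that carry a symbol and whose difference kept 1 sign in 7 or more of the 9 dogs, 12 in each direction, and none passed the edgeR test with the dog block.

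SLC35F1, a member of a family of solute carriers, had the largest difference of the 12 genes on the higher side. Its level was 2.1 CPM in the lowest carcinoma, 26 in the median and 137 in the highest, against 0.115, 6.08 and 77.2 in adenomas. The groups overlapped, and only the carcinomas of dogs 29 and 47 lay above every adenoma. The log2 difference within dogs was 2.36 ± 0.65 (SE), with a 95% interval of 1.02 to 3.70 and an unadjusted p of 0.00131 by edgeR. Taken dog by dog, as the difference of mean log2(CPM + 0.5), it was positive in 7 of 9, from 4.34 in dog 47 down to -1.86 in dog 36. DESeq2 gave an adjusted p of 0.016. Leaving out each dog in turn moved the difference between 2.05 and 2.65. On a scale set over 89 libraries, the median SLC35F1 level was 3.72 CPM in 14 lobular hyperplasias and 3.74 in 6 duct ectasias. The 2 normal glands had a median of 3.78 and the 4 atypias of 3.25. Among tumors the median was 6.02 in adenomas, 16.8 in 18 complex adenomas and 25 in carcinomas. It was 14 in 4 mixed carcinomas and 12.2 in 3 in situ carcinomas, which ranged from 0.32 to 129. The complex adenomas thus had a median above that of the simple adenomas.

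**Figure D1:**
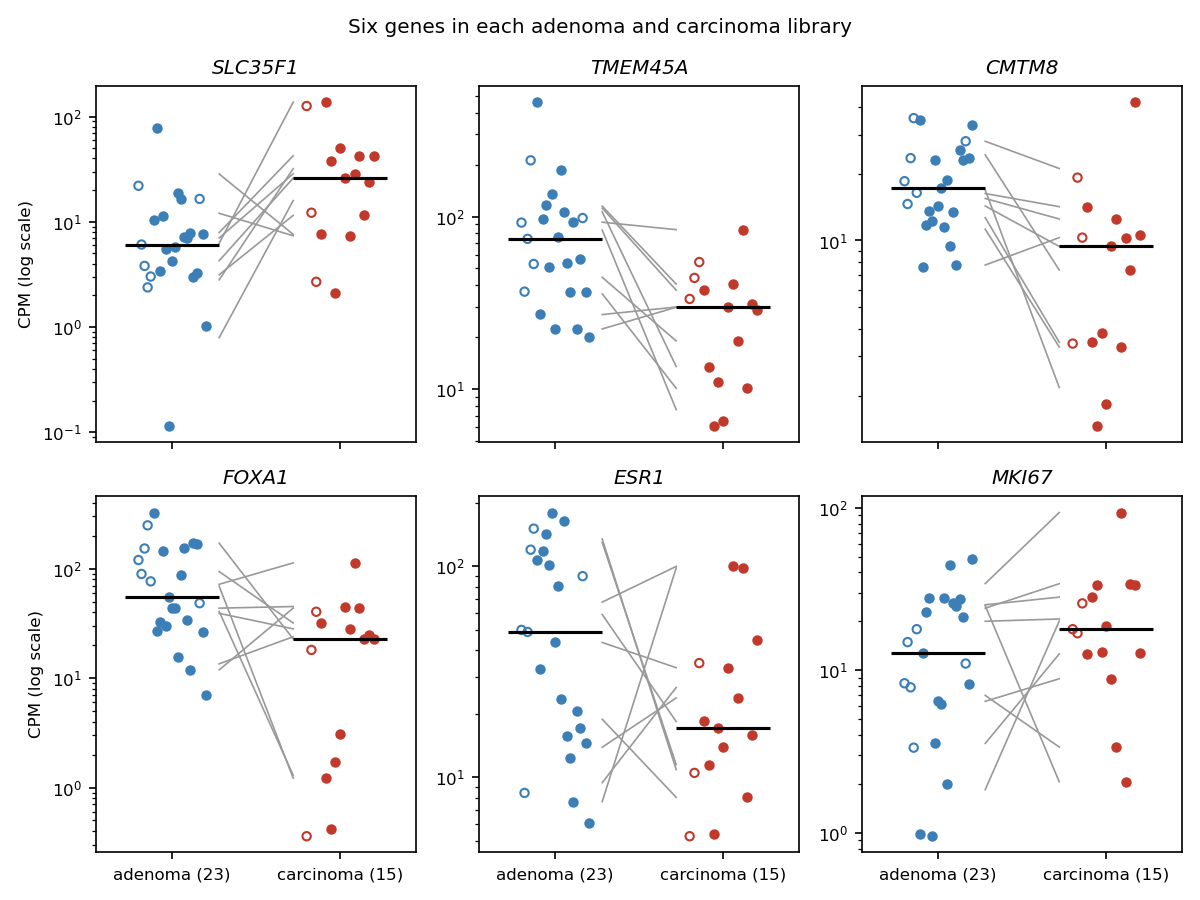
Level of 6 genes in each library, in CPM on a log axis. Each point is 1 library, filled where the dog had both tumor types and open where it had 1, black bars are medians, and grey lines join the geometric means of adenomas and carcinomas in each of the 9 dogs with both. The groups overlap for every gene, and FOXA1 shows 5 carcinomas between 0.359 and 3.06 CPM, under the lowest adenoma at 6.94.

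TSPAN18, a tetraspanin of the cell membrane, ranged from 7.89 to 148 CPM in carcinomas (median 20.5) and from 1.6 to 59.9 in adenomas (median 8.99), a log2 difference of 1.00 ± 0.31. GBP6, of the interferon-induced guanylate-binding proteins, ranged from 4.34 to 126 CPM in carcinomas (median 29.6) and from 2.67 to 34.2 in adenomas (median 13.3). Its log2 difference was 0.86 ± 0.28 and positive in 8 of 9 dogs, and 5 carcinomas lay above every adenoma. The guanylate-binding proteins are close relatives, and reads may be split between them. CDC7, the kinase that starts DNA replication at origins, had medians of 20 and 15 CPM and a log2 difference of 0.67 ± 0.22. Its highest values, 214 CPM in dog 47 and 120 in dog 29, stood far above the highest adenoma at 31.4, and without dog 47 the log2 difference was 0.39. The other 8 genes had smaller differences, from 0.22 ± 0.08 for MDC1, a mediator of the DNA damage checkpoint, to 0.56 ± 0.19 for KLF12, a transcriptional repressor. Between them stood KIF5A, UBQLN4, ANO8, HABP4, NECAB3 and the amino acid transporter SLC7A6.

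On the lower side, SPA17, a protein first described on the surface of sperm, had the smallest p of all genes. Its level was 1.07 CPM in the lowest carcinoma, 2.35 in the median and 4.01 in the highest, against 2.39, 4.49 and 7.95 in adenomas. Of the 15 carcinomas, 8 lay below every adenoma. The log2 difference was -0.77 ± 0.18 (95% interval -1.15 to -0.39, unadjusted p = 0.000336 by edgeR) and had the negative sign in 9 of 9 dogs, from -1.18 in dog 54 to -0.05 in dog 70. DESeq2 gave an adjusted p of 0.045. On the scale set over 89 libraries the median SPA17 level was 4.45 CPM in mixed carcinomas, 2.32 in the 3 in situ carcinomas, 3.96 in complex adenomas and 4.08 in lobular hyperplasias, against 2.36 in carcinomas and 4.55 in adenomas. Only the in situ carcinomas had a median near that of the carcinomas.

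TMEM45A, a transmembrane protein, had the largest negative difference of the 12 genes. It ranged from 6.11 to 84 CPM in carcinomas (median 29.8) and from 19.9 to 461 in adenomas (median 74.3), and 6 carcinomas lay below every adenoma. The log2 difference was -1.72 ± 0.44 (95% interval -2.63 to -0.80, unadjusted p = 0.0007 by edgeR), with -3.37 in dog 54 and 0.41 in dog 59 at the ends, and the DESeq2 adjusted p was 0.017. Without dog 54 it was -1.21. CMTM8, a membrane protein known to promote uptake of the EGF receptor in human cells, had medians of 9.4 CPM in carcinomas and 17.2 in adenomas. Its log2 difference was -1.17 ± 0.33, and 7 carcinomas lay below the lowest adenoma at 7.57 CPM while 1, of dog 89, lay above the highest. Without dog 54 the CMTM8 difference was -0.76.

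The kinase NEK10 (-1.29 ± 0.36), KIAA1324, known as an estrogen-induced gene of the human endometrium (-1.25 ± 0.38), the metal reductase STEAP4 (-1.21 ± 0.36) and the acid phosphatase ACPP (-0.92 ± 0.28) had log2 differences of similar size. The microtubule-associated MTUS1 stood at -0.71 ± 0.20, with 7 carcinomas below every adenoma. SLC38A2, a transporter of neutral amino acids, had a log2 difference of -0.48 ± 0.15 and the negative sign in 9 of 9 dogs. In dog 54 that sign rested on adenoma replicate 11, of another library preparation, at 1130 CPM. The other adenoma of dog 54 was at 444 CPM and its carcinomas at 374, 507 and 597. MGAT4B, which branches N-linked glycans, TUSC3, a subunit of the oligosaccharyltransferase, and BLVRA, a biliverdin reductase, lay between -0.47 and -0.37. Small standard errors, rather than large differences, put these last genes on the list. For TUSC3 and MTUS1, too, adenoma replicate 11 of dog 54 stood high, at 308 and 148 CPM. The other adenoma of that dog was at 109 and 49.6. The carcinomas of dog 54 were at 112, 92.7 and 86.7 CPM of TUSC3 and at 48.6, 33.7 and 24.6 of MTUS1. NEK10 was at 15.2 CPM in adenoma replicate 11 and at 2.78 in the other adenoma of dog 54, and KIAA1324 at 323 and 73.2. In the same order ACPP was at 64.6 and 18.7 CPM and TMEM45A at 136 and 51.3. For NEK10, KIAA1324, ACPP and TMEM45A the carcinomas of dog 54 lay below both adenomas. STEAP4 was at 36 and 14 CPM, with those carcinomas at 3.53, 23.8 and 7.15.

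**Figure D2:**
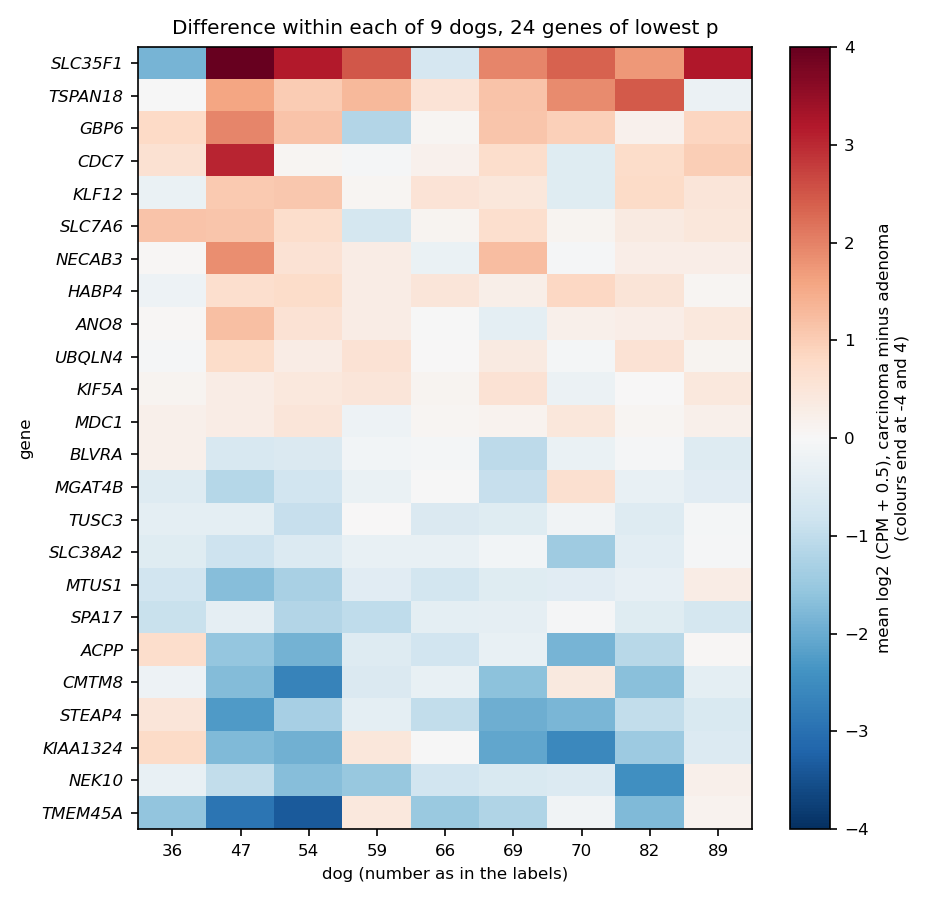
Difference of mean log2(CPM + 0.5) between the carcinomas and adenomas of each dog, for the 24 genes of lowest unadjusted p, 12 in each direction, among those with a symbol and 1 sign in 7 or more of the 9 dogs. Red is higher in carcinoma and blue lower, columns are the 9 dogs and colours end at 4; SLC35F1 runs from -1.86 in dog 36 to 4.34 in dog 47, and SPA17 and SLC38A2 are below 0 in each dog.

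The hormone receptors had negative estimates with wide intervals. ESR1, the estrogen receptor, ranged from 5.26 to 100 CPM in carcinomas (median 17.1) and from 6.1 to 180 in adenomas (median 48.9). Its log2 difference within dogs was -0.73 ± 0.59 (95% interval -1.95 to 0.50, edgeR adjusted p = 0.9998), positive in 4 dogs and negative in 5. Single dogs pointed in opposite directions, with -3.56 in dog 54, -3.44 in dog 47 and 3.59 in dog 70, and without dog 54 the difference was 0.06. PGR, the progesterone receptor, had medians of 3.85 and 14.2 CPM and a log2 difference of -1.12 ± 0.71. Its highest carcinoma, at 12.7 CPM, was below the median adenoma. PRLR, the prolactin receptor, had medians of 6.69 and 28.6 CPM and a log2 difference of -1.12 ± 0.80, which was -0.13 without dog 54, and PGR was at -0.22 without that dog. Of 17 hormone receptors and targets tested, 0 passed, 14 had a negative and 3 a positive estimate, and the median log2 difference was -0.25 against -0.012 over all genes tested. By dog, the median over these 17 genes ran from -0.99 in dog 82 to 0.81 in dog 70. AREG, an EGF receptor ligand induced by estrogen, stood at -1.07 ± 0.53 and WNT4, a progesterone target, at -1.14 ± 0.65. Without dog 54 they were -0.69 and -0.46. In adenoma replicate 11 of dog 54, of another library preparation, AREG was at 11.4 CPM and WNT4 at 19. The other adenoma of that dog was at 2.3 and 1.53.

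FOXA1, the pioneer factor that opens chromatin for the estrogen receptor, separated a few carcinomas from the rest. Its level was 0.359 CPM in the lowest carcinoma, 22.8 in the median and 113 in the highest, against 6.94, 55.2 and 326 in adenomas. The carcinoma of dog 29, that of dog 47 and all 3 of dog 54 lay between 0.359 and 3.06 CPM, below every adenoma, and the other 10 carcinomas were within the range of the adenomas. The log2 difference within dogs was -1.58 ± 0.71 (95% interval -3.05 to -0.12, unadjusted p = 0.0354 by edgeR), negative in 5 dogs and positive in 4. It was -5.34 in dog 47, -4.42 in dog 54 and 1.83 in dog 70, and -0.74 without dog 54. SPDEF, a transcription factor of luminal and secretory cells, was below every adenoma in the same 5 carcinomas, at 0 to 0.4 CPM against a lowest adenoma of 3.24. Its log2 difference was -1.45 ± 0.64 (unadjusted p = 0.0311 by edgeR). PRLR lay below every adenoma in these 5 as well, at 0.702 to 2.45 CPM against 3.22, and so did GATA3, at 33.2 to 73.4 CPM against 86.8. The GATA3 difference was -0.82 ± 0.45. Without dog 54 the SPDEF difference was -0.66 and that of GATA3 was -0.20. These carcinomas were singled out after their values were seen, and 3 of the 5 came from 1 dog. Genes outside the luminal list, such as CES1, ECHS1 and PRDX1, also lay below every adenoma in just these 5.

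Of 20 luminal lineage genes tested, 0 passed, 15 had a negative and 5 a positive estimate, with a median of -0.27. At an unadjusted p under 0.05 there were 2, FOXA1 and SPDEF. ELF5, the secretory progenitor factor, stood at 0.79 ± 0.45, with medians of 62 CPM in carcinomas and 38.1 in adenomas, and its sign turned to -0.10 with dog as a random effect. MUC1, a mucin of the luminal surface, stood at 1.33 ± 0.65 (0.86 without dog 36), from 0.359 to 264 CPM in carcinomas and from 0.661 to 92.7 in adenomas. The adhesion protein CDH1 had a log2 difference of -0.27 ± 0.25, which was 0.06 without dog 54. Within dogs the median over the luminal genes was lowest in dog 47 at -1.66 and highest in dog 59 at 1.30. Dog 59 had the adenoma with high skeletal muscle genes, and without the 3 libraries of that kind the median over the luminal genes was -0.39.

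**Figure D3:**
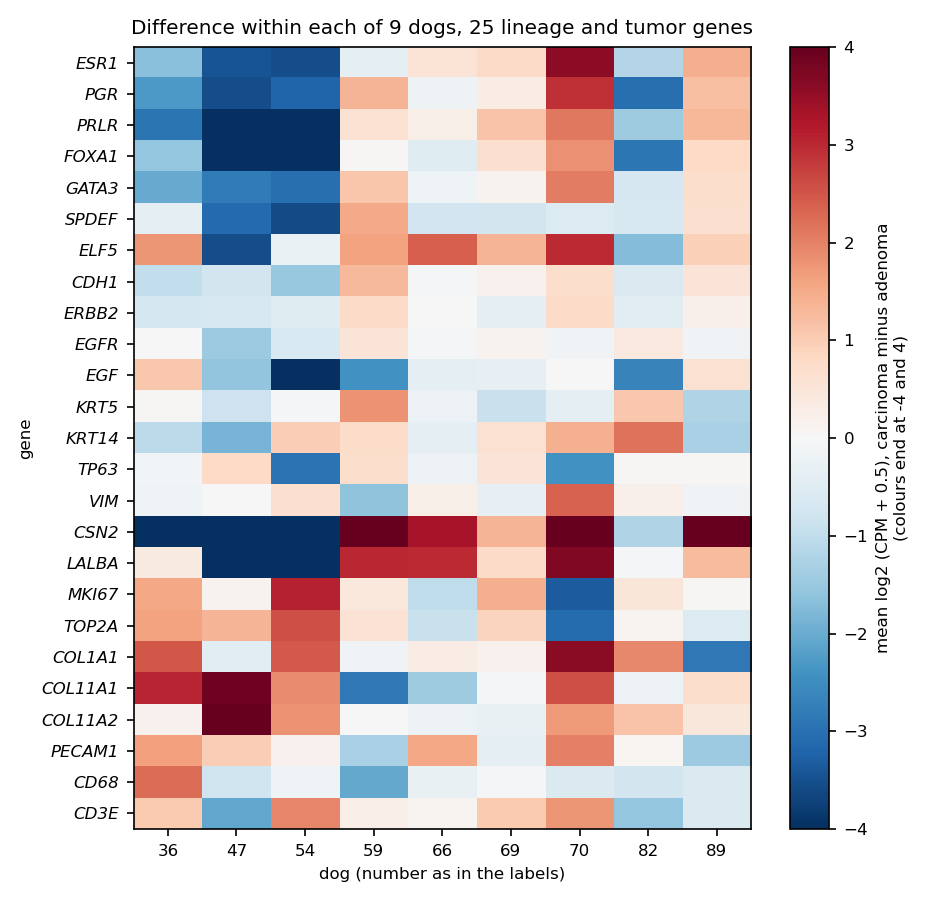
Difference of mean log2(CPM + 0.5) between the carcinomas and adenomas of each dog for 25 lineage, growth and stroma genes, with colours as in the plot of the 24 genes and ending at -4 and 4. ESR1, PGR, PRLR, FOXA1 and GATA3 are all below 0 in dogs 36, 47, 54 and 82 and all above 0 in dogs 69, 70 and 89.

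Among the receptors of the ERBB family, ERBB2 ranged from 134 to 455 CPM in carcinomas and from 201 to 651 in adenomas, a log2 difference of -0.16 ± 0.16 with a 95% interval of -0.49 to 0.16. EGFR stood at -0.18 ± 0.18 (95% interval -0.55 to 0.18). A 2-fold difference of either receptor was outside these intervals. EGF, the ligand, had a wider range, from 0.0398 to 26.9 CPM in carcinomas (median 4.09) and from 1.17 to 76.5 in adenomas (median 15.2), with 5 carcinomas below every adenoma. Its log2 difference was -1.60 ± 0.62 (unadjusted p = 0.0159 by edgeR) and -0.88 without dog 54. Of 10 ERBB receptors and ligands tested, 0 passed, 9 had a negative estimate and the median was -0.31.

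Dividing cells were compared by the mitosis and DNA replication genes. MKI67, the marker of cycling cells behind the Ki-67 index, ranged from 2.06 to 93.5 CPM in carcinomas (median 17.9) and from 0.952 to 48.5 in adenomas (median 12.8). The log2 difference was 0.44 with a 95% interval of -0.70 to 1.59, positive in 7 of 9 dogs, and -0.03 without dog 54. Dog 54 had 3.08 and dog 70 had -3.32. TOP2A, the topoisomerase of dividing cells, stood at 0.36 ± 0.49, and at -0.07 without dog 54. Of 32 mitosis genes tested, 0 passed, 23 had a positive estimate and the median was 0.08, from -0.57 for BUB1 to 0.46 for MYBL2. Of 28 DNA replication genes, 0 passed, 23 had a positive estimate and the median was 0.14, with CDC45 highest at 0.69. Without dog 54 CDC45 was at 0.21, MYBL2 at 0.09 and NUF2 at 0.07. Other mitosis genes were below 0 without that dog, among them CCNB1 (-0.60), CDK1 (-0.26), PLK1 (-0.21) and UBE2C (-0.28). By dog the median over the mitosis genes ran from -2.23 in dog 70 to 1.58 in dog 54 and was above 0 in 6 of 9. Of 13 cell cycle inhibitors and p53 targets, 0 passed and the median was -0.05. CDKN2A was not tested under a symbol.

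Basal and myoepithelial genes had estimates on both sides of 0. KRT5 stood at -0.21 ± 0.31, KRT14 at -0.05 ± 0.47, TP63 at -0.41 with a 95% interval of -1.19 to 0.37 (-0.01 without dog 54), and VIM, the intermediate filament of mesenchymal and myoepithelial cells, at 0.02 ± 0.28. The sign of KRT14 and of VIM turned in several of the other settings. Of 25 basal and myoepithelial genes tested, 0 passed, 15 had a negative estimate and the median was -0.05. They ran from -0.96 for S100A2 to 0.48 for KRT15. At an unadjusted p under 0.05 by edgeR there was 1 member, with a negative estimate. Milk genes varied widely among lesions of each type. CSN2, beta-casein, ranged from 0.195 to 19700 CPM in carcinomas and from 1.66 to 17900 in adenomas, with a log2 difference of -0.97 ± 2.10. LALBA, the lactose synthase subunit alpha-lactalbumin, stood at 0.23 with a 95% interval of -2.28 to 2.74. The highest CSN2 carcinoma was that of dog 66, and the highest CSN2 adenoma came from the same dog. Of 13 milk genes, 0 passed and 8 had a negative estimate.

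Matrix genes had positive medians and no member that passed. Of 24 interstitial matrix genes, 20 had a positive estimate and the median was 0.22. COL1A1, the main fibrillar collagen, ranged from 173 to 13400 CPM in carcinomas (median 1320) and from 18.5 to 10400 in adenomas (median 807), a log2 difference of 0.52 ± 0.62, which was 0.18 without dog 54 and 1.02 without dog 89. By dog the median over these 24 genes was 2.57 in dog 70, 1.84 in dog 36, -1.06 in dog 59 and -1.36 in dog 89. The carcinoma of dog 70 was diagnosed with desmoplasia, and a link between diagnosis and matrix level was not tested. Of 13 basement membrane genes, 9 had a positive estimate and the median was 0.26, and of 27 matrix remodelling enzymes 19 did, with a median of 0.16. MMP9, a protease also listed with neutrophils, stood apart at -1.19 ± 0.60. Of 16 activated fibroblast genes, 9 had a positive estimate with a median of 0.01.

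The collagens of cartilage included COL11A2, which edgeR called without the dog block. COL11A2 ranged from 3.49 to 515 CPM in carcinomas (median 10.7) and from 1.4 to 40.3 in adenomas (median 5.6), and the carcinomas of dogs 29, 34, 47 and 89 supplied the 4 values above every adenoma. Without the block the log2 difference was 2.79 (edgeR adjusted p = 0.0423), and within dogs it was 1.32 ± 0.61 (edgeR adjusted p = 0.9998). COL11A1, its partner in the same fibril, had medians of 153 and 49.9 CPM and a log2 difference within dogs of 1.17 ± 0.62. Without dog 47 the difference within dogs was 0.80 for COL11A2 and 0.70 for COL11A1. COL9A1 stood at 1.42 ± 0.79. On the scale set over 89 libraries the median COL11A1 level was 191 CPM in complex adenomas and 195 in mixed carcinomas, tumors in which cartilage or its precursors can occur, against 49.8 in adenomas and 154 in carcinomas. Of 16 cartilage matrix genes tested, 0 passed, 11 had a positive estimate and the median was 0.25. ZPLD1, also called without the block, was at 1250 CPM in the carcinoma of dog 47 and at 16.5 or less in the other 14, so 1 library carried its value, and within dogs the log2 difference was -0.11 without dog 47. The unnamed ENSCAFG00000014011 was at 215 CPM in the same library and at 1.35 or less in the other 14 carcinomas, and ENSCAFG00000017814 was at 446 CPM in that of dog 29 and at 3.62 or less in the others.

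No stromal or immune cell marker passed the test. PECAM1 of endothelium stood at 0.20 (95% interval -0.54 to 0.95), CD68 of macrophages at -0.37 (-1.01 to 0.27) and CD3E of T cells at 0.30 (-0.60 to 1.21). Of 15 T and NK cell genes, 0 passed, 12 had a positive estimate and the median was 0.33, while by dog the median ran from -1.66 in dog 47 to 1.94 in dog 54. Of 9 B and plasma cell genes 8 had a positive estimate with a median of 0.13, and of 15 macrophage genes 8 did with a median of 0.02. Neutrophil genes had a median of -0.46 with 2 of 7 positive. Interferon-induced genes had a positive estimate in 14 of 15 with a median of 0.23. In dog 47 the interferon median was -1.39 and in dog 69 it was 1.52.

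Among the stress lists, 15 of 20 hypoxia and glycolysis genes had a positive estimate with a median of 0.16, and CA9, a carbonic anhydrase induced by hypoxia, stood highest at 1.16, which was 0.64 without dog 47. Of 18 unfolded protein response genes 14 had a negative estimate with a median of -0.08. HERPUD1, a part of the degradation machinery of the endoplasmic reticulum, stood at -0.58 ± 0.19 (unadjusted p = 0.00585 by edgeR), negative in 8 of 9 dogs, and DNAJC3, a chaperone there, at -0.48 ± 0.19 (-0.27 without dog 54). In dog 54, DNAJC3 was at 560 CPM in adenoma replicate 11, of another library preparation, and at 118 in the other adenoma. Its carcinomas there were at 123, 153 and 117. HERPUD1 was at 469 and 169 CPM in these adenomas and at 90.3, 147 and 177 in the carcinomas of dog 54. Among 27 Wnt pathway genes the median was 0.09 and the Wnt antagonist relative DKK3 stood at 0.82 ± 0.35. Adipocyte genes had a median of -0.19 over 12 members, and keratinocyte genes one of -0.80 over 3. Skeletal muscle genes had a median of 0.67 within dogs and -1.67 without the block, with summed levels from 30.5 to 1640 CPM in carcinomas and from 33.1 to 33600 in adenomas. Over the 32 lists, 476 genes were tested, 0 were called and 294 had a positive estimate, against 7642 of 16024 over all genes.

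**Figure D4:**
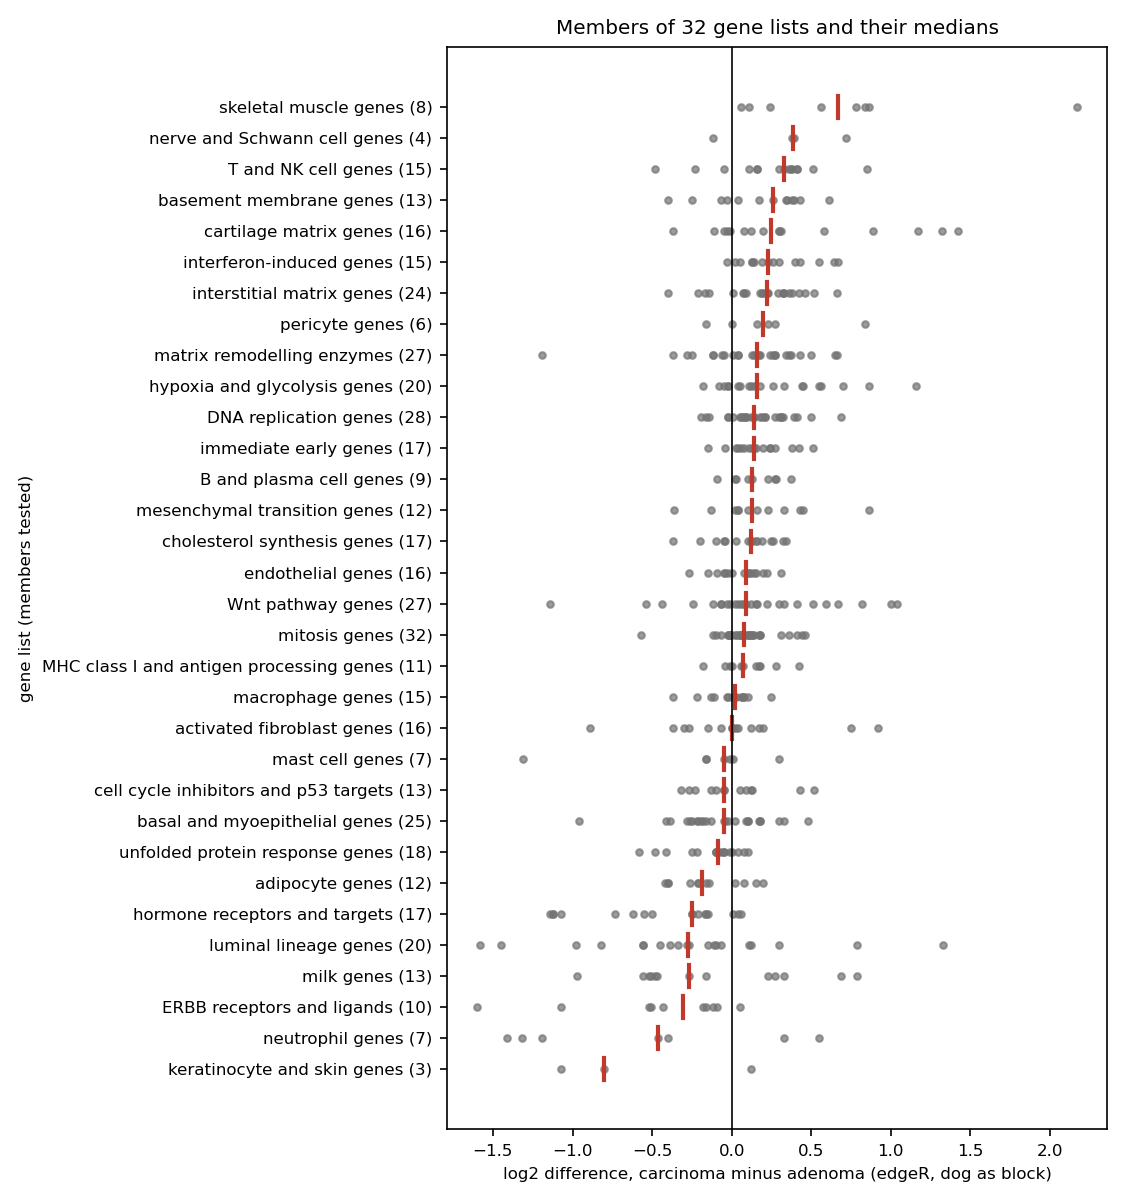
Log2 difference between carcinomas and adenomas within dogs for the tested members of 32 gene lists, with the number of members in brackets. Each grey point is 1 gene and red bars are list medians; the medians run from -0.80 for keratinocyte genes to 0.67 for skeletal muscle genes, and no member passed the test.

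Single carcinomas differed widely in how many of the 16024 genes tested lay outside the range of the adenomas. Any library can lie outside that range in some genes, also where the types do not differ. The number to expect in that case was not computed. The carcinoma of dog 47 lay below every adenoma in 1614 genes and above every adenoma in 1807, and that of dog 29 in 1598 and 1251. At the other end, the carcinoma of dog 66 did so in 129 and 188 genes, and that of dog 70 in 170 and 183. At least 5 of 15 carcinomas lay below every adenoma in 190 genes (1.19%) and above every adenoma in 94 (0.587%), a limit set after the values were seen. The shares that would arise with no difference between the types were not computed, so these counts are descriptive only. Dog 54 supplied 3 of the 15 carcinomas. Of the 190 genes, 158 included the carcinoma of dog 29, 144 that of dog 47, and 113 to 145 each of those of dog 54, while 10 included that of dog 66. SPINK8, a protease inhibitor, was below every adenoma in 6 carcinomas, those of dogs 29, 47, 54 and 69.

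Tumors of the other labels gave a second contrast between malignant and benign lesions. The 4 mixed and 3 in situ carcinomas were set against the 18 complex adenomas in a fit of all 89 libraries with dog as a block. The mixed and the in situ type had the same weight, so the 3 in situ libraries counted as much as the 4 mixed ones. Dogs 1, 17 and 83, which had 3 of the mixed and 1 of the in situ carcinomas, had no complex adenoma, so the simple adenomas and carcinomas and the remaining lesions also enter this estimate. Of 20243 genes, 0 were higher (0%) and 1 was lower (0.00494%), which was HNMT, an enzyme that inactivates histamine, at a log2 difference of -1.66 ± 0.30 (edgeR adjusted p = 0.0122). At an unadjusted p under 0.05 there were 2013 genes. Between simple carcinomas and adenomas the log2 difference of HNMT was -0.23 ± 0.17 (95% interval -0.58 to 0.12), and the difference between the contrasts was not tested.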

How the data were processed

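Reads were aligned with HISAT2 to CanFam3.1, per the submitters' processing notes. For counting, neither program nor strand setting is given in the sources used here, so reads of an antisense or overlapping gene may be counted with its partner. The authors deposited raw read counts per Ensembl gene in each library, and a table of scores per gene symbol, whose making is not stated. Symbols were paired with gene rows by the correlation of the deposited scores with log2 CPM within dogs (lowest 0.99955), which named 9514 genes, and 1989 score columns were not used. Rows that name no gene, 37.4% of reads not aligned among them, were left out. Counts were tested with edgeR 4.0.16 in R 4.3.3 (TMM, filterByExpr with minimum count 10 and minimum total count 15, robust glmQLFit, glmQLFTest), with dog as a fixed block, and p-values were adjusted by Benjamini-Hochberg. CPM use TMM-scaled library sizes. DESeq2 1.42.0 and limma 3.58.1 were alternatives. The procedure was also run on simulated counts of constant spread and without dog effects. That run cannot show how the test behaves with the differences between dogs found here. The labels tie libraries to dogs, and carcinomas and adenomas of the same dog deviated together (mean correlation 0.254, different dogs -0.0175). Libraries of 1 dog are separate lesions, and 0 pairs of libraries were identical. The named genes were the 12 of lowest p in each direction among genes with a symbol, of mean log2 CPM 1 or more and of 1 sign in 7 or more of the 9 dogs, with fixed genes such as ESR1. Further members of the lists were picked with their values in view. The groups and gene lists were chosen with earlier results of these data known. Some results are not reported here.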

Additional observations from a re-analysis of the deposited data

How the results depend on the processing

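The count of called genes was 0 in both directions in 24 of 26 settings tried. DESeq2 gave 1 higher and 3 lower, and a fit with no replicate block gave 7 higher and 0 lower. Leaving out each dog in turn gave 0 to 0 calls in both directions, as did RLE size factors, omission of the low-count filter, dog as a random effect, counts summed per dog, dogs with both types alone, a test against a 1.5-fold change, sequencing run as the block, omission of lesions with a further diagnosis or high muscle score, covariates for RNA integrity or diameter, and all 89 libraries in the fit. Omission of carcinoma replicate 11, the shallowest library, was added after seeing the data and also gave 0. Genes at an unadjusted p under 0.05 numbered 325 without dog 54, 941 without dog 89, 200 with run as the block and 1612 with no block. The log2 diameter difference without the replicate block was 1.27. With no replicate block the contrast of mixed and in situ carcinoma with complex adenoma gave 140 higher and 18 lower. Of 85 genes tried, 72 kept their sign in each setting. Signs turned for CSN2 (0.53), PECAM1 (-0.01), VIM (-0.07) and ZPLD1 (-0.47) with the diameter covariate, for ELF5 (-0.10) and LALBA (-1.01) with dog as a random effect, for LALBA with the RNA integrity covariate (-0.33) and in the same libraries without it (-0.09), for LALBA (-0.21) and VIM (-0.02) with all lesion types, for VIM (-0.22) and MYH1 (-3.88) with no block, for VIM (-0.09) with run as the block, and for KRT14 (0.06) without further lesions. Leaving out each dog gave -0.07 to 0.56 for CD3E, -0.44 to 0.06 for CDH1, -2.53 to 1.53 for CSN2, -1.16 to 0.06 for ESR1, -0.31 to 0.22 for KRT14, -0.43 to 1.43 for LALBA, -0.03 to 0.71 for MKI67, -0.07 to 0.62 for TOP2A, -0.14 to 0.15 for VIM and -0.11 to 0.96 for ZPLD1. The causes were not tested. Median depth was 38.9 M gene reads, and differences within dogs rest on 9 dogs.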
